A study of Mus musculus with 5 samples.

Results

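The SLAM family receptors are described here through 6 genes, Slamf1, Cd48, Cd244, Ly9, Slamf6 and Slamf7, chosen by name out of the 15287 genes of the count table, and all 6 were listed. Single-cell transcriptomes were obtained from bone marrow of 20-week-old mice that received no treatment, and every library came from the genotype Fgd5CreERT2/+Rosa26Tomato/+, so the controls carried the reporter allele too. Lineage-negative, CD45.2+ c-kit+ cells (Lin-kit+) formed 3 libraries with 11581 cells, cells of that gate that were also positive for the ZsGreen reporter expressed from the Fgd5 locus (Fgd5+) formed 1 library with 793 cells, and reporter-positive cells that were in addition Sca1+, CD150+ and CD48 negative (HSC-Fgd5+) formed 1 library with 519 cells. The questions were in which of these populations, and in which blood lineages among the Lin-kit+ cells, the transcripts of the SLAM genes were found. The reporter marks cells that use the Fgd5 promoter, and the number of mice behind a library was not given in the sources used here.

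SLAM family receptors are cell surface proteins of the immunoglobulin superfamily that bind each other between blood cells, mostly like to like, and pass signals through small SH2-domain adaptors, Fyn and phosphatases. CD150, encoded by Slamf1, and CD48 are used together in bone marrow to separate hematopoietic stem cells (HSCs), which carry CD150 and lack CD48, from multipotent and lineage-restricted progenitors. CD150 is also found on megakaryocyte and early erythroid progenitors, CD48 is the GPI-anchored ligand of CD244 (2B4), and Ly9, Slamf6 and Slamf7 are best known from lymphocytes, natural killer cells and plasma cells.

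The 6 genes lie in 1 stretch of mouse chromosome 1, with their relative Cd84 between Slamf1 and Slamf6 (GRCm38, GENCODE M21 positions). Cd244, named Cd244a in the annotation, spans chr1:171559193-171609746 on the plus strand and holds Ly9 (chr1:171588624-171607410, minus strand) within its span. Slamf7 (chr1:171632403-171653035, minus strand), Cd48 (chr1:171682009-171705258, plus strand), Slamf1 (chr1:171767127-171801184, plus strand) and Slamf6 (chr1:171917515-171953170, plus strand) follow. Whether counting used strand was not given in the sources used here, so reads of Cd244 and Ly9, and of Slamf6 and the antisense gene Gm37065 at its 5′ end, cannot be told apart with certainty. Slamf1 and Cd48 start on the same strand with 61868 bases between the end of Cd48 and the start of Slamf1, and because the values below ran in opposite directions for these neighbours, their promoter windows from RefSeq (GRCm38.p6, plus strand, 5′ to 3′) are shown at chr1:171766882-171767181 for Slamf1 and chr1:171681742-171682041 for Cd48. Capitals mark matches on either strand to letters that GATA factors favour (AGATAA and its close variant TGATAA), that ETS factors (GGAAGT) and RUNX factors (TGTGGT) favour, and to an E-box (CAGCTG), and the matches do not overlap each other in these windows.
Slamf1 promoter: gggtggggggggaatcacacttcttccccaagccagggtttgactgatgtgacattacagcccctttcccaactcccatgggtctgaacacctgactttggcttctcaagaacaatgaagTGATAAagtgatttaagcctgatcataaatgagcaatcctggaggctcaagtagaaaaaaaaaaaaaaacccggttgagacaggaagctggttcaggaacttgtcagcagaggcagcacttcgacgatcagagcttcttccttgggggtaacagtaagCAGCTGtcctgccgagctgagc
Cd48 promoter: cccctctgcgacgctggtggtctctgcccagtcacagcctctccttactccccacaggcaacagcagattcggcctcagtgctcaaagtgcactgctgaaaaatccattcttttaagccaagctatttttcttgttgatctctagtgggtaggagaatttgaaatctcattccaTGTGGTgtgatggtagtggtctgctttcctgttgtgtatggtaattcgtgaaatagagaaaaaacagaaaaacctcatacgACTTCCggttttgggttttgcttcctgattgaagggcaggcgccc
The Slamf1 window held 1 GATA and 1 E-box match and no ETS or RUNX match, and the Cd48 window held 1 RUNX and 1 ETS match and none of the others. Of all 32851 promoter windows of 300 bases, 18.6% held a GATA match, 23.8% an ETS match, 16.8% a RUNX match and 16.3% an E-box match. A match is a description of these letters only. The Slamf7 window held 1 E-box match, and the windows of Cd244 and Slamf6 held none of the motifs.

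The libraries differed in depth, from 2166655 UMIs in HSC-Fgd5+ to 36080242 UMIs in the largest Lin-kit+ library, with medians of 3721 to 6567 UMIs per cell. The barcode suffixes were given to populations by cell number, and 62 barcodes occurred in more than 1 library. The gene behind the reporter, Fgd5, was at 6.0 UMIs per 1000000 UMIs of the library (CPM) in Fgd5+ and 10.2 CPM in HSC-Fgd5+, above the 1.10 to 1.71 CPM of the Lin-kit+ libraries (log2 fold change 1.94, SE 0.33, adjusted p = 0.00182). All tests below are edgeR quasi-likelihood tests on UMI counts summed per library, adjusted over all genes tested by the Benjamini-Hochberg method, and a gene was called at an adjusted p under 0.05. Intervals of single libraries cover counting error only, and p-values cover the spread between libraries, which may be technical.

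Reporter-positive cells carried more Slamf1 and less of the other 5 SLAM transcripts than Lin-kit+ cells. By the mean of the libraries Slamf1 was 15.1-fold higher, Cd48 was 47.4-fold lower and Ly9 only 1.45-fold lower. The 2 reporter-positive libraries, which are different sorts, were tested together against the 3 Lin-kit+ libraries. In libraries summed over cells, fewer cells with a transcript and less of it per cell cannot be told apart. All 6 genes were called, 1 higher and 5 lower, against 63.1% of the 11991 genes tested (32.7% higher and 30.4% lower), so a call by itself did not set the SLAM genes apart. Of the 5 lower, Cd244, Slamf6 and Slamf7 passed the filter on low counts only through the Lin-kit+ libraries, so their calls are no support. The median log2 fold change of the 6, which includes these genes, was -2.81, against 0.07 over all genes tested.

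Slamf1 was at 1.90, 3.37 and 2.11 CPM in Lin-kit+ libraries a, b and c, at 35.7 CPM (95% Poisson interval 30.2 to 42.0) in Fgd5+ and at 38.3 CPM (30.5 to 47.5) in HSC-Fgd5+. The groups did not overlap, and the fitted log2 fold change was 3.36 (SE 0.23, adjusted p = 2.75e-05). CD150 protein was a criterion of the HSC-Fgd5+ sort, and its part in the Slamf1 level of that library was not tested. Fgd5+ cells were not sorted on CD150, and the HSC-Fgd5+ library differed from them by a ratio of 1.07 (0.81 to 1.41, exact counting interval).

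Cd48 was at 189, 188 and 199 CPM in Lin-kit+ libraries a, b and c, at 6.24 CPM (4.07 to 9.14) in Fgd5+ and at 1.85 CPM (0.50 to 4.73) in HSC-Fgd5+. Every Lin-kit+ library lay above both reporter-positive libraries, and Cd48 fell by 5.91 on the log2 scale (SE 0.28, adjusted p = 6.1e-06). Absence of CD48 protein was a criterion for HSC-Fgd5+ but not for Fgd5+, in which 26 Cd48 UMIs stood against 4 in HSC-Fgd5+, a ratio of 0.296 (0.075 to 0.853) after scaling to depth.

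Cd244, the receptor for CD48, was at 6.0, 6.64 and 7.23 CPM in the Lin-kit+ libraries and at 0.96 CPM in Fgd5+ and 0.92 CPM in HSC-Fgd5+, from 4 and 2 UMIs. Its fitted decrease was 3.34 on the log2 scale (SE 0.30), without overlap between the groups, so receptor and ligand were both low in reporter-positive cells. Slamf7 was at 4.40, 3.80 and 3.05 CPM in Lin-kit+ and at 0.72 and 0.46 CPM in Fgd5+ and HSC-Fgd5+, from 3 and 1 UMIs. Its fitted decrease was 3.04 (SE 0.47). As Cd244 and Slamf7 passed the filter on low counts only through the Lin-kit+ libraries, no p-value is given for either.

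Ly9, a receptor that binds itself, showed the smallest of the 6 differences. It was at 10.2, 8.35 and 7.57 CPM in Lin-kit+ and at 6.96 CPM (4.66 to 9.99) in Fgd5+ and 5.08 CPM (2.53 to 9.08) in HSC-Fgd5+. The point values of the groups did not overlap but the intervals did, and the fitted decrease of 0.99 (SE 0.24, adjusted p = 0.0096) became a decrease of 0.45 that was no longer called (adjusted p = 0.13) when library totals replaced TMM factors. That scaling moved the median of all genes up by 0.54 and the split of calls from 3921 higher and 3646 lower to 6586 higher and 1993 lower. Slamf6, also a self-binding receptor, was at 1.3, 1.45 and 1.33 CPM in Lin-kit+, had 0 UMIs in Fgd5+, which allows up to 0.720 CPM, and 2 UMIs, both in 1 cell, in HSC-Fgd5+. Its fitted decrease was 2.58 (SE 0.80), and the call was lost without the Fgd5+ library (decrease of 1.11) and with library totals (decrease of 2.06). Slamf6 too passed the filter on low counts only through the Lin-kit+ libraries, so its call is no support.

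**Figure D1:**
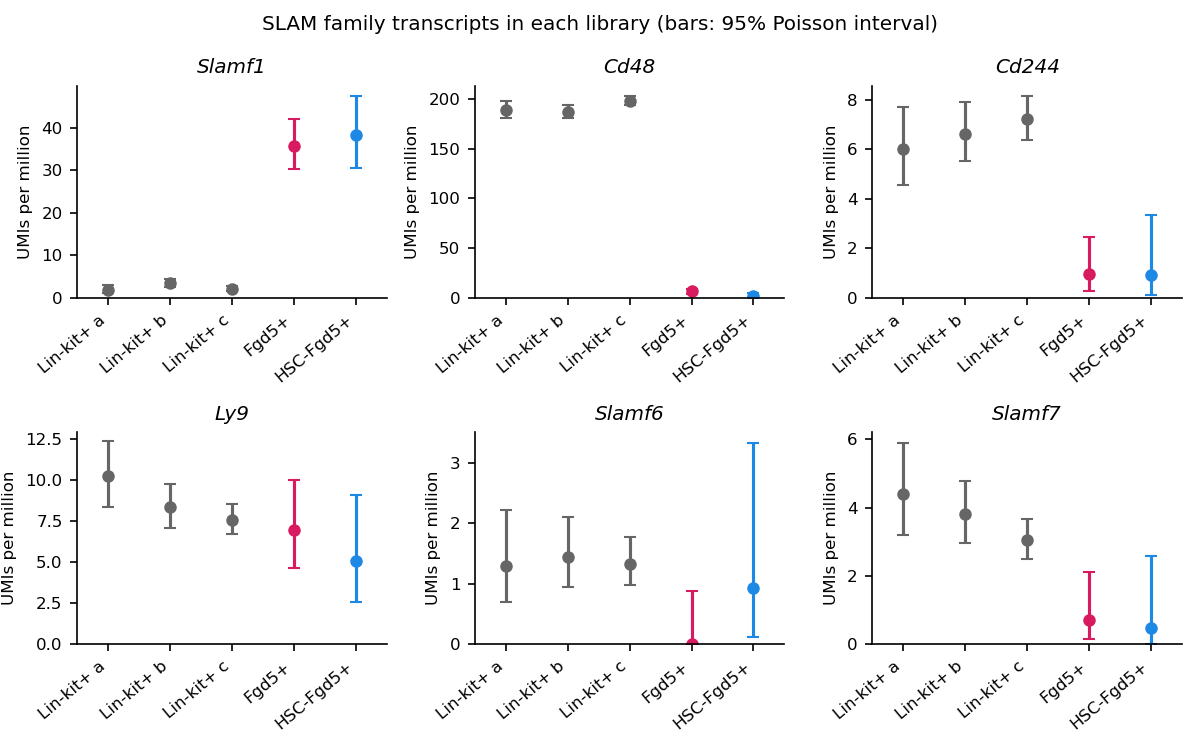
Levels of the 6 SLAM family transcripts in CPM (vertical axes, linear, each from 0) in the 3 Lin-kit+ libraries, the Fgd5+ library and the HSC-Fgd5+ library. Points are libraries and bars 95% Poisson intervals. Slamf1 is at 35.7 and 38.3 in the reporter-positive libraries against at most 3.37 in Lin-kit+, Cd48 shows the opposite order, and the intervals of Ly9 overlap.

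Most reporter-positive cells fell into 1 cluster, with HSC markers, and the few that did not carried most of the Cd48. Clusters were built without the SLAM genes. Of the 1312 reporter-positive cells, 1220 lay in an HSC-like cluster in which all 8 HSC markers were raised, 69 in a smaller HSC-like cluster with 6 cell division markers raised, and 23 in clusters of other cells. The 23 cells held 24 Cd48 UMIs (185 CPM) in 10 cells, while the 1220 cells of the main cluster held 3 (0.546 CPM). They also held 3 of the Cd244 UMIs, both Slamf6 UMIs and 3 of the Slamf7 UMIs of the reporter-positive libraries, but no Slamf1 UMI, which at this depth allows up to 23.1 CPM. Of these cells, 15 came from Fgd5+, with 21 of its 26 Cd48 UMIs, and 8 from HSC-Fgd5+, with 3 of its 4.

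In the main HSC-like cluster Slamf1 was at 39.0 CPM (32.8 to 46.0) in Fgd5+ and 41.7 CPM (32.9 to 52.0) in HSC-Fgd5+. In the dividing cluster it was at 17.8 CPM (7.67 to 35.0) and 18.9 CPM (6.12 to 44.0), from 8 and 5 UMIs. The values in dividing cells were lower in both libraries, and the intervals of main and dividing cells overlapped in each. Ly9 was at 7.19 CPM and 5.88 CPM in the main cluster and had 2 UMIs among the dividing cells.

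At the level of single cells Slamf1 was sparse. A Slamf1 UMI was found in 15% of Fgd5+ cells (Wilson interval 12.7 to 17.7) and 13.3% of HSC-Fgd5+ cells (10.6 to 16.5), against 1.34%, 1.39% and 1.14% of cells in Lin-kit+ libraries a, b and c. With each cell thinned to 1500 UMIs, which left out 265 shallower cells in all, the shares were 4.57% and 4.85% against 0.448%, 0.561% and 0.439%. Cd48 was found in 1.39% of Fgd5+ and 0.771% of HSC-Fgd5+ cells, and in 56.7%, 44.9% and 53.2% of Lin-kit+ cells. No reporter-positive cell had UMIs of both genes. This was 0 of the 119 Fgd5+ cells with Slamf1, which allows a share of up to 2.52%, where 1.63% of the cells without Slamf1 had Cd48, so an exclusion of the pair within cells was not detectable at this depth. Among Lin-kit+ cells 63 of the 145 cells with Slamf1 (43.4%, Wilson interval 35.7 to 51.6) also had Cd48, and 50.8% (49.9 to 51.7) of the cells without Slamf1 did.

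Lin-kit+ cells were next divided into lineage classes, each named from markers of the cell type. The classes present in all 3 libraries with at least 10 cells were erythroid-like (925 cells), megakaryocyte-like (536), lymphoid-primed multipotent-like (1249), mast or basophil-like (525), dendritic-like (536), monocyte-like (3356) and neutrophil-like with primary granule genes (1729) or later granule genes (1840). Each class was compared with the mean of the other classes on the log scale, with library as a block. A class with a very low level pulls that mean down. The classes were made from other genes of the same cells, so many genes were called in every comparison. Slamf6 was under the filter on low counts, and the other 5 members gave 21 calls over the 8 comparisons. The 21 include the dendritic-like call of Slamf7, which was fixed in advance by how Slamf7 passed that filter. Slamf1, Cd244 and Ly9 likewise passed it only through classes where they were called higher, so their calls are no support. Slamf7 had no UMI in the classes other than dendritic-like and monocyte-like, so its tests there had no usable standard error.

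By class, the 5 members tested gave 4 calls in dendritic-like cells, all higher (41.5% of genes were called there, 22.4% higher and 19.1% lower). One of the 4 was Slamf7, which passed the filter on low counts only through this class. In erythroid-like cells 1 was higher and 3 lower (55.8%, 29.8% and 26%), and in megakaryocyte-like cells 1 was higher and 1 lower (35.8%, 19.6% and 16.2%). The 1 higher in each was Slamf1, which passed that filter only through these 2 classes. In lymphoid-primed multipotent-like cells 3 were higher and none lower (46.8%, 26.8% and 19.9%). Likewise 2 were higher and none lower in monocyte-like cells (54%, 29.8% and 24.3%) and in mast or basophil-like cells (26.1%, 16.4% and 9.72%). In neutrophil-like cells none was higher, and 1 was lower in the class with primary granule genes (53.6%, 28.3% and 25.3%) and 3 in the class with later granule genes (65.8%, 33.1% and 32.7%). Slamf1 differed from the rest, with its lowest mean in dendritic-like cells and its highest in the erythroid-like cells, where Cd244, Ly9, Slamf6 and Slamf7 were at or near 0.

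**Figure D2:**
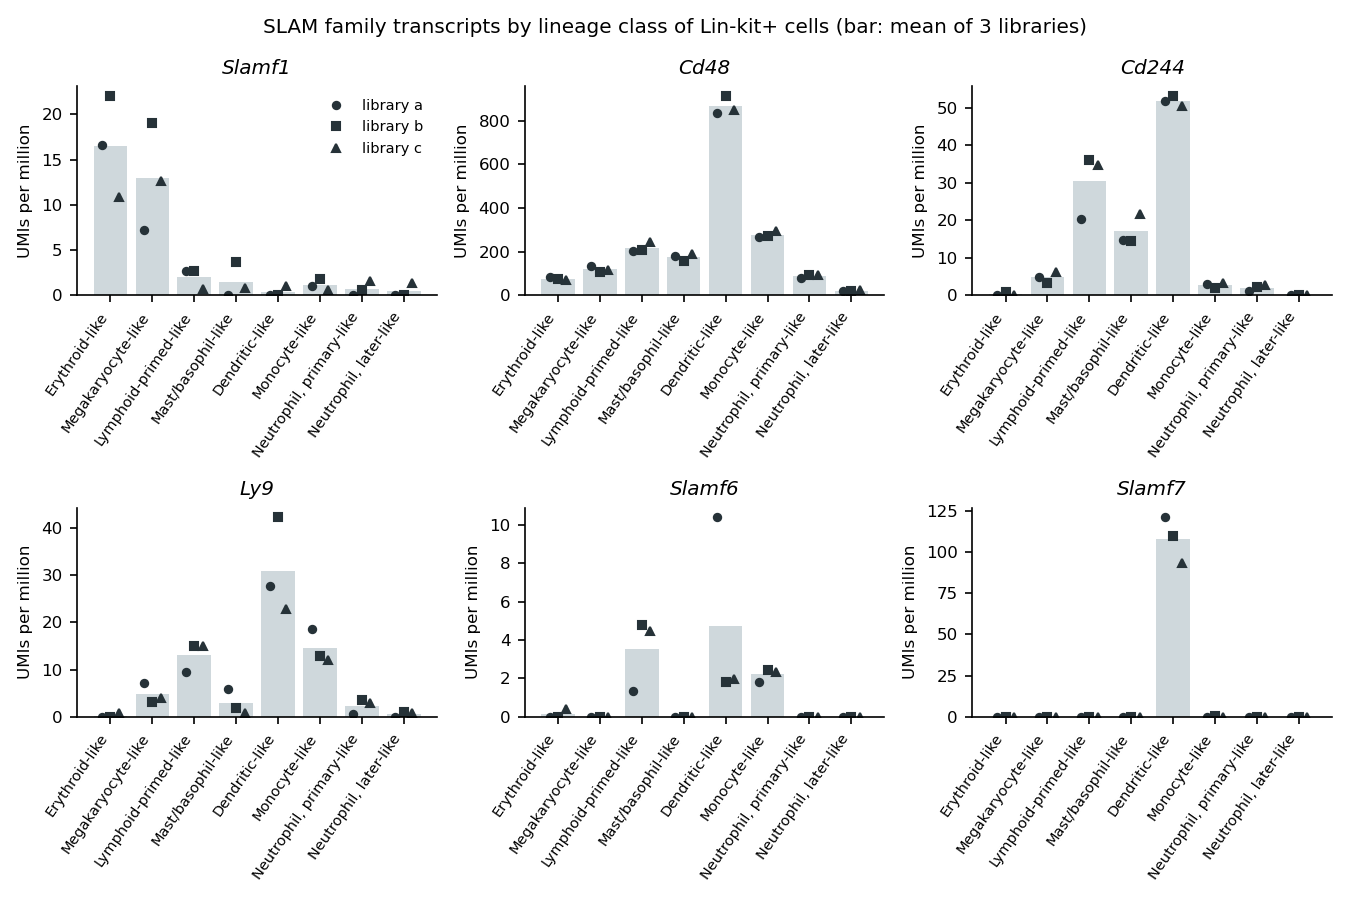
Levels of the 6 SLAM family transcripts in CPM (vertical axes, linear, each from 0) in the 8 lineage classes of Lin-kit+ cells. Bars are means over 3 libraries and symbols single libraries. Slamf1 stands out in erythroid-like and megakaryocyte-like cells, Cd48, Cd244 and Ly9 are highest in dendritic-like cells, and Slamf7 reaches 93.2 to 121 there with at most 0.307 elsewhere.

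Slamf1 marked the erythroid-like and megakaryocyte-like classes. It was at 16.7, 22.0 and 10.8 CPM in erythroid-like cells of libraries a, b and c (16.5 ± 5.60, SD, n = 3) and at 7.24, 19.1 and 12.6 CPM in megakaryocyte-like cells (13 ± 5.92), and these ranges overlapped each other but no other class. Lymphoid-primed multipotent-like cells came next with 0.748 to 2.72 CPM, and from there down to dendritic-like cells, with 0 to 0.991 CPM, neighbours in the order overlapped. Slamf1 was higher in erythroid-like cells (log2 fold change 3.10, SE 0.34, adjusted p = 1.73e-11, 8932 genes tested) and in megakaryocyte-like cells (2.81, SE 0.44, adjusted p = 5.41e-07). Without library c the erythroid-like value was 4.43 and the megakaryocyte-like value 3.79, both still called. The levels moved with the grouping of the cells: the erythroid-like mean was 5.10 CPM and the megakaryocyte-like mean 20.9 CPM at a Leiden resolution of 0.5, and the megakaryocyte-like mean was 5.67 CPM with cells assigned directly to marker lists.

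These 2 classes held 41.1% and 19.6% of the Slamf1 UMIs of Lin-kit+ cells with 6.81% and 3.57% of all their UMIs. A Slamf1 UMI was found in 6.38% of erythroid-like cells (median depth 3318 UMIs) and 5.41% of megakaryocyte-like cells (3863 UMIs), against 0.272% of neutrophil-like cells with later granule genes (5080.5 UMIs), taken here as the background. Monocyte-like cells, at 0.715% and 0.627 to 1.84 CPM, were within the range of the other low classes and were not called (log2 fold change -1.15, SE 0.51, adjusted p = 0.054).

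Between megakaryocyte-like and erythroid-like cells Slamf1 did not pass the test (log2 fold change -0.26, SE 0.38, 95% interval -0.99 to 0.48, adjusted p = 0.67), while Cd48, Cd244 and Ly9 were higher in megakaryocyte-like cells and no member was lower (28.3% of genes were called, 14.3% higher and 14% lower). These 3 calls depended on the clustering too: none remained at a Leiden resolution of 2 (adjusted p of 0.18, 0.20 and 0.60), and when each cell went to the marker list with most of its UMIs the values turned to -1.19, -6.15 and -4.56. The direction of Slamf1 changed with the clustering as well. The erythroid-like class joined a cluster of 611 cells in which erythroid markers such as Klf1, Car1 and Epor were raised but not the globin genes Hba-a1 and Hbb-bt (median 2517 UMIs), and a cluster of 315 cells, 314 of them Lin-kit+, in which all 11 erythroid markers were raised (7477 UMIs). Slamf1 was at 29.0, 36.0 and 21.7 CPM in the first and at 3.45, 9.33 and 4.81 CPM in the second, in libraries a, b and c, with no overlap. As these clusters were set apart after their values were seen, no test is given. With a Leiden resolution of 0.5 all 611 cells of the first cluster merged with 473 of the 539 cells of the megakaryocyte-like cluster, and Slamf1 was then higher in megakaryocyte-like than in erythroid-like cells (log2 fold change 1.71, adjusted p = 0.00134), while the erythroid-like difference from the other classes was 1.62. At a resolution of 2, where 96.4% of the first cluster stayed together, the Slamf1 difference between the lineages was 0.04 (adjusted p = 0.97), so no order of these lineages is read from the data.

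The genes most like Slamf1, by Pearson correlation of log2(CPM + 1) over the 8 classes and the 2 reporter-positive libraries among 10649 genes, were Clca3a1 (r = 0.990), Adamtsl5 (0.981), Arhgef12 (0.979), Rint1 (0.978) and Aldh1a1 (0.975), which encodes a retinaldehyde dehydrogenase. The 10 points share libraries and depth, and the correlations are a description. Clca3a1 was at 23.0 and 21.2 CPM in Fgd5+ and HSC-Fgd5+, at 9.98 and 12.5 CPM in erythroid-like and megakaryocyte-like cells, and at most at 0.205 CPM in the other classes. For Cd48 the most alike were Gm5616 (0.971), Hnrnpf (0.969), Haao (0.957), Ebp (0.953) and Atp5f1 (0.951). Levels of Hnrnpf only ran from 560 to 753 CPM, so a high correlation did not mean a like range.

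Cd48 was found in every class, and its levels spanned a wide range. Dendritic-like cells were highest at 833, 913 and 849 CPM in libraries a, b and c (865 ± 42.2, SD, n = 3). Monocyte-like (277 ± 14.7), lymphoid-primed multipotent-like (219 ± 23.7), mast or basophil-like (176 ± 15.6) and megakaryocyte-like cells (119 ± 14.6) followed, each without overlap with the next. Neutrophil-like cells with primary granule genes (87.5 ± 8.06) and erythroid-like cells (76.8 ± 6.07) overlapped each other, and neutrophil-like cells with later granule genes were lowest at 21.1, 21.2 and 24.9 CPM.

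All 8 of these differences of Cd48 from the other classes were called. It was higher in dendritic-like (log2 fold change 2.83, SE 0.06, adjusted p = 2.82e-44), monocyte-like (0.99, SE 0.04), lymphoid-primed multipotent-like (0.50, SE 0.06) and mast or basophil-like cells (0.32, SE 0.09, adjusted p = 0.00353). The last call was lost without library c (0.25, adjusted p = 0.21). The mean of the other classes was taken on the log scale, so higher here does not mean above their plain average CPM. Cd48 was lower in megakaryocyte-like (-0.64, SE 0.09), neutrophil-like cells with primary granule genes (-0.64, SE 0.06), erythroid-like (-1.27, SE 0.08) and neutrophil-like cells with later granule genes (-2.09, SE 0.09, adjusted p = 2.88e-29). With cells assigned directly to the marker list with most of their UMIs, the class with primary granule genes took 5669 cells, its Cd48 mean was 231 CPM and its difference turned to 0.94, while the megakaryocyte-like mean was 44.4 CPM, so the order of these classes changed with the grouping.

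Cd48 also differed between clusters of the same lineage. It was at 103 CPM and 59.7 CPM in the clusters with primary granule genes and at 33.4 CPM and 12.7 CPM in those with later granule genes. Erythroid-like cells showed the same kind of step, from 116 CPM in the cluster without raised globin genes to 44.7 CPM in the cluster with them. By share of cells, Cd48 ran from 85.3% of dendritic-like to 10.8% of neutrophil-like cells with later granule genes, and thinning to 1500 UMIs gave 68.4% and 3.45%. No class came down to the Cd48 level of the reporter-positive libraries.

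**Figure D3:**
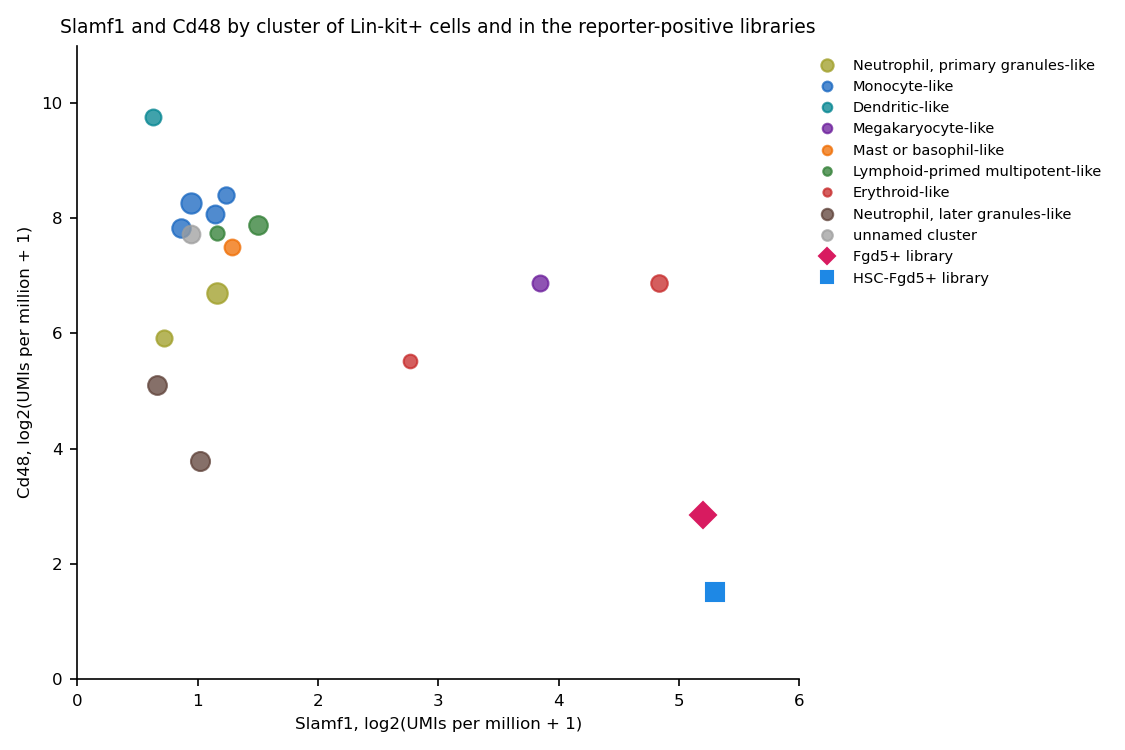
Slamf1 (horizontal) and Cd48 (vertical), both as log2(CPM + 1), in clusters of at least 100 Lin-kit+ cells (circles, area growing with cell number, coloured by lineage class) and in the Fgd5+ and HSC-Fgd5+ libraries (diamond and square). The reporter-positive libraries are alone in combining high Slamf1 with low Cd48, while the early erythroid-like and megakaryocyte-like clusters have Slamf1 together with Cd48 at 116 and 117 CPM.

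Cd244 was concentrated in fewer classes than its ligand Cd48. It was at 51.9, 53.1 and 50.6 CPM in dendritic-like, 20.4, 36.1 and 34.8 CPM in lymphoid-primed multipotent-like and 14.9, 14.6 and 21.7 CPM in mast or basophil-like cells, where the last 2 overlapped. The fitted log2 fold changes there were 4.18 (SE 0.25), 3.32 (SE 0.21) and 2.58 (SE 0.34). Cd244 passed the filter on low counts only through these 3 classes, so its calls against the other classes are no support. Lymphoid-primed multipotent-like cells held 36.2% and dendritic-like cells 21.3% of all Cd244 UMIs of Lin-kit+ cells. Monocyte-like cells, which were second for Cd48, had only 1.84 to 3.37 CPM and were not called (-0.53, SE 0.45, adjusted p = 0.33).

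At the other end, 1 Cd244 UMI was found in 925 erythroid-like cells and 1 in 1840 neutrophil-like cells with later granule genes. By counts this was 32.2-fold lower (5.75 to 1277, exact counting interval) and 81.8-fold lower (14.6 to 3237) than in the rest of the 8 classes together. Both were called with all libraries, but the first call was lost without library c (-2.87) and the second without library b (-4.01). Megakaryocyte-like cells, at 3.18 to 6.30 CPM, exceeded erythroid-like cells (12 UMIs against 1, log2 fold change 4.10, SE 0.94, adjusted p = 0.000483), and this call too was lost without library c (2.55, adjusted p = 0.24).

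Ly9 was highest in dendritic-like cells at 27.7, 42.2 and 22.8 CPM, followed by monocyte-like (18.7, 12.9 and 12.0 CPM) and lymphoid-primed multipotent-like cells (9.52, 15 and 15 CPM), which overlapped. The fitted log2 fold changes there were 3.17 (SE 0.32), 1.90 (SE 0.20) and 1.85 (SE 0.28). Ly9 passed the filter on low counts only through these 3 classes, so its calls against the other classes are no support. Erythroid-like cells held 2 Ly9 UMIs, by counts 19.5-fold lower than the rest (5.36 to 161), and were called lower, as were neutrophil-like cells with later granule genes (-1.66, SE 0.53, adjusted p = 0.00476), although not without library c. Ly9 thus shared its erythroid-like and later neutrophil-like lows and its dendritic-like high with Cd244, on the opposite strand of the same stretch, but not the monocyte-like level. Ly9 exceeded erythroid-like levels in megakaryocyte-like cells (10 UMIs against 2, 2.98, SE 0.96, adjusted p = 0.0137), a call lost without library b (2.68, adjusted p = 0.064).

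**Figure D4:**
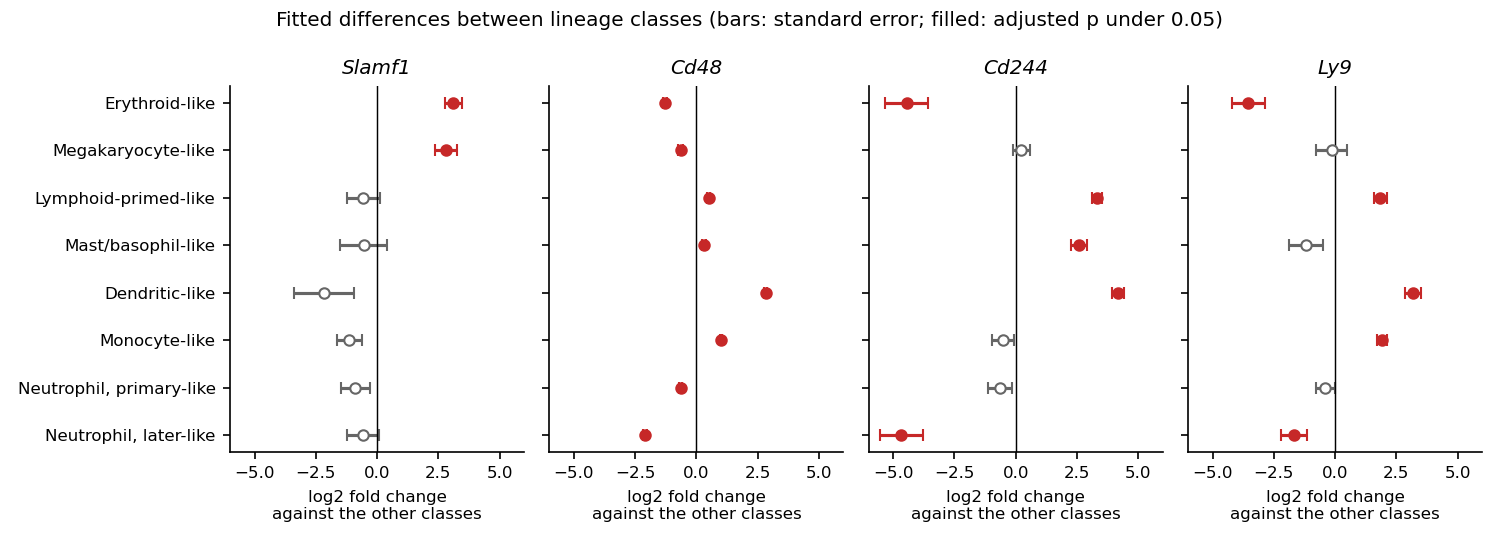
Fitted log2 fold change of Slamf1, Cd48, Cd244 and Ly9 in each lineage class against the mean of the other classes on the log scale, with standard errors as bars. Filled points passed an adjusted p under 0.05. Cd48 passed in all 8 classes, and Slamf1 in the erythroid-like (3.10) and megakaryocyte-like (2.81) classes. Slamf1, Cd244 and Ly9 passed the filter on low counts only through classes where they were high, so their filled points are no support.

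Slamf6 was the rarest member, with 88 UMIs in all Lin-kit+ cells. By level it was at 10.4, 1.83 and 1.98 CPM in dendritic-like cells of libraries a, b and c, from 6 UMIs, at 1.36, 4.76 and 4.49 CPM in lymphoid-primed multipotent-like cells and at 1.84, 2.46 and 2.35 CPM in monocyte-like cells, and these classes overlapped. Monocyte-like cells, with 35.6% of all UMIs, held 53 Slamf6 UMIs (60.2%) and lymphoid-primed multipotent-like cells held 20. The latter were divided unevenly, with 1 UMI in 884 cells of a cluster with Wfdc17, Cd34 and Flt3 among its leading genes and 19 UMIs (11.8 CPM, 7.09 to 18.4) in 365 cells of a cluster led by Dntt, with Blnk and Il7r, genes of early lymphoid cells, among the next. No Slamf6 UMI was found in megakaryocyte-like, mast or basophil-like or either neutrophil-like class, and 1 was found in erythroid-like cells.

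Slamf7 was all but restricted to the dendritic-like class among the 8 classes. It was at 121, 110 and 93.2 CPM there, in 25.4% of 536 cells, and 189 UMIs stood against 3 in the other 7 classes together, all 3 in monocyte-like cells. The ratio by counts was 1952 (658 to 9551, exact counting interval). As Slamf7 passed the filter on low counts only through this class, it had to differ there, and no test of it is given. Outside the named classes, a cluster of 26 cells led by Jchain and Mzb1, which belong to antibody-secreting cells, had 583, 276 and 398 CPM of Slamf7 in libraries a, b and c and 31 UMIs in all. It had only 2 supporting markers and was left unnamed.

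**Figure D5:**
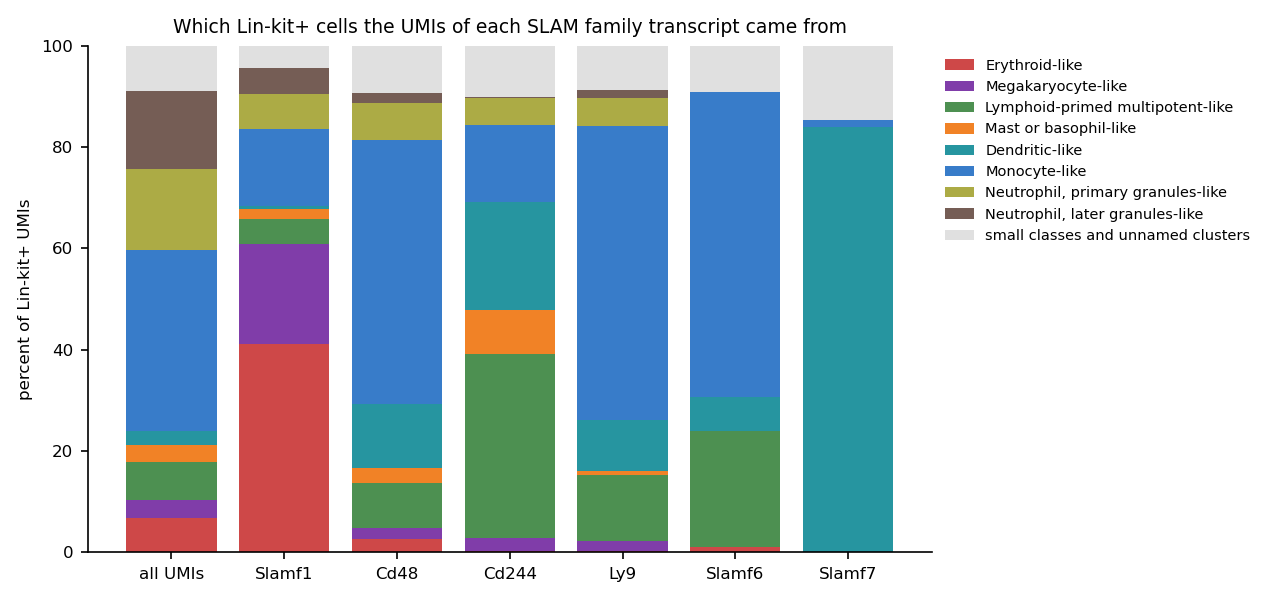
Percent of all UMIs of Lin-kit+ cells (left bar) and of the UMIs of each SLAM family transcript that came from each lineage class, summed over 3 libraries. Erythroid-like and megakaryocyte-like cells gave 41.1% and 19.6% of Slamf1, dendritic-like cells gave 84% of Slamf7, and monocyte-like cells gave 52.0% of Cd48.

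Stem cells were too few among Lin-kit+ cells to compare. The 2 HSC-like clusters held 27 of the 11581 Lin-kit+ cells, with a median of 2324 UMIs. None of the 27 had a Slamf1 UMI, which allows a share of up to 11.1% of cells with a UMI, and a difference from reporter-positive cells was not detectable at this depth. The 27 cells had 1 Cd48 and 1 Cd244 UMI.

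Of 15 further genes of the family and its signalling listed by name, 14 were in the table and 11 could be tested between populations. In reporter-positive cells 4 were higher, 3 were lower and 4 did not pass the test, with a median log2 fold change of 0.45, so that the share called was close to the 63.1% of all genes (32.7% higher and 30.4% lower). Cd84, the self-binding SLAM receptor that lies between Slamf1 and Slamf6, was at 22.8, 22.9 and 24.5 CPM in Lin-kit+ and 87.8 and 90.0 CPM in Fgd5+ and HSC-Fgd5+ (log2 fold change 1.38, SE 0.08, adjusted p = 1.48e-05). Of the 3 non-member genes in the table between the outermost members it was the one that passed the test, and the other 2, Gm10521 and Gm37065, were under the filter on low counts. By fitted value Cd84 and Slamf1 were thus higher while Slamf6, Cd48, Cd244, Ly9 and Slamf7 of the same stretch of 393978 bases were lower. As given above, the Ly9 and Slamf6 calls were lost with library totals, and the Cd244, Slamf6 and Slamf7 calls are no support.

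Among the signalling partners, Prkcq, which encodes protein kinase C theta, was at 30.9 and 29.1 CPM in Fgd5+ and HSC-Fgd5+ against 1.58 to 1.87 CPM in Lin-kit+ (log2 fold change 3.61, SE 0.16, adjusted p = 5.15e-06). Fyn, the kinase that SLAM adaptors recruit, was higher as well (1.65, SE 0.17, adjusted p = 0.000168), and so was Slamf8, a family member without the usual signalling tail (1.34, SE 0.24, adjusted p = 0.00239). Sh2d1b1, the adaptor EAT-2, fell by 4.47 (SE 0.49, adjusted p = 0.000216), from 4.92 to 5.10 CPM in Lin-kit+ to 0.48 and 0 CPM, and Lyn (decrease of 1.11, SE 0.16) and the phosphatase Ptpn6 (decrease of 0.77, SE 0.09) were also lower. Lck, Ptpn11, Inpp5d and Csk did not pass the test. The adaptor Sh2d1a, Slamf9 and Cd2 were under the filter on low counts.

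Of the 11 related genes tested over the lineage classes, 7 were higher and 1 lower in dendritic-like cells (22.4% and 19.1% of all genes) and 6 and 1 in lymphoid-primed multipotent-like cells (26.8% and 19.9%). In erythroid-like cells 3 were higher and 2 lower (29.8% and 26%), in megakaryocyte-like cells 3 and 2 (19.6% and 16.2%), and in mast or basophil-like cells 3 and 1 (16.4% and 9.72%). In monocyte-like cells 2 were higher and 4 lower (29.8% and 24.3%), and in neutrophil-like cells 1 and 4 with primary granule genes (28.3% and 25.3%) and 3 and 3 with later ones (33.1% and 32.7%). The adaptor Sh2d1b1 was at 0 in all 3 libraries of both classes with high Slamf1. It was higher in dendritic-like (log2 fold change 3.6, SE 0.52), monocyte-like (2.43, SE 0.35) and both neutrophil-like classes (2.3, SE 0.43, and 2.75, SE 0.44), sizes that depend on the offset for the classes at 0. Prkcq was highest in the megakaryocyte-like class (13.3 ± 10.0 CPM, SD, n = 3) and was called higher there (3.83, SE 0.58) and in erythroid-like, lymphoid-primed multipotent-like and mast or basophil-like cells (2.75, 3.27 and 2.74). Cd84 was called higher in lymphoid-primed multipotent-like, mast or basophil-like and megakaryocyte-like cells (0.61, 1.48 and 1.09) and lower in dendritic-like and monocyte-like cells (-2.38 and -0.86), the classes with the most Cd48. Lck, a kinase of lymphocytes, was called higher in lymphoid-primed multipotent-like cells (4.38, SE 0.24), and Slamf8 in dendritic-like cells, at 56.1 ± 10.8 CPM. In single libraries of the other tested classes Lck reached at most 7.31 CPM and Slamf8 at most 2.04 CPM. Both thus passed the filter on low counts through the class where they were called, and these calls, counted above, are no support. Sh2d1b1, Prkcq and Fyn passed it only through classes where they were called higher, so their calls are no support either.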

How the data were processed

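Bone marrow cells were sorted as Lin-kit+, Fgd5+ or HSC-Fgd5+ and measured with the Chromium Single Cell 3' V2 kit. Per the labels, raw UMI counts per gene and cell were deposited. The submitters' processing notes name Cell Ranger 1.3 and 2.1, Seurat 2.3.4 and the build mm10. The annotation behind the counts is not given in the sources used here. Groups follow the source label, since the titles of the 2 reporter-positive samples go against it. Barcode suffixes were matched to populations by how many cells each had (11581, 793 and 519), and the 3 Lin-kit+ libraries, here a, b and c, could not be tied to single sample labels.

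The members, the list of related genes and the marker lists were chosen with earlier results of these data known. Named were the 6 members, the 15 related genes, Fgd5, the 5 genes most like Slamf1 and Cd48 (at least 100 UMIs, pseudocount 1), and genes of the locus that passed the test. No cell was removed. Without the members, the related genes and Fgd5, 2000 variable genes gave 20 principal components, 15 neighbours and Leiden clusters at resolution 1 (21 clusters, scanpy 1.11.5, leidenalg 0.10.2, Python 3.11.15). A cluster was named from 12 marker lists if 3 or more markers reached a fold of 2 over other cells and 5% of its cells, cutoffs set with the clusters known. Scrublet called 165 cells (1.28%) doublets, which were kept.

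Counts were summed per library, or per Lin-kit+ library and class, and tested with edgeR 4.0.16 in R 4.3.3 (TMM factors, its filter on low counts, quasi-likelihood test), with DESeq2 1.42.0 as an alternative. The scripts were tested on simulated data with known changes. For reporter-positive against Lin-kit+, 20 of 157 calls fell on unchanged genes, and 60.4% of 2-fold and 85.9% of 4-fold changes were recovered. For megakaryocyte-like against erythroid-like, 14 of 171 calls fell on unchanged genes, and 73.6% and 96.8% were recovered. CPM are UMIs per 1000000 UMIs of the same cells. Intervals are at 95%, a floor is 3 counts, and both cover counting error only.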

Additional observations from a re-analysis of the deposited data

How the results depend on the processing

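All 31 log2 fold changes of members checked were refitted, and 309 of 335 refits kept the direction and the side of the threshold, 20 lost the call and 6 turned direction. With Leiden resolution 0.5, where early erythroid-like cells joined megakaryocyte-like cells, Slamf1 turned to 1.71 in megakaryocyte-like minus erythroid-like cells, and with resolution 2 to 0.0385. When each cell went directly to the marker list with most of its UMIs, the primary granule list took 5669 cells and 46 remained monocyte-like, Cd48 turned to 0.94 in cells with primary granule genes, and megakaryocyte-like minus erythroid-like values turned to -1.19 for Cd48, -6.15 for Cd244 and -4.56 for Ly9. The number of members called between megakaryocyte-like and erythroid-like cells, 3, was then 1, and with resolution 2 it was 0 in edgeR, with adjusted p of 0.18 for Cd48, 0.20 for Cd244 and 0.60 for Ly9. With 1 library left out it was 1 to 3. The members called between populations were 5 or 6 with 1 library left out, 4 with library totals and 4 with 519 cells per library, where Slamf6 and Slamf7 were under the filter on low counts. Genes called between populations were 5964 to 7668 with 1 library left out. Class calls numbered 18 to 22 with 1 Lin-kit+ library left out.

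Library was a block in the class fits, since each library gave every class, and with no replicate block the class calls were 21 and the megakaryocyte-like against erythroid-like calls 3, as with it. No paired analysis was possible because each reporter-positive group has 1 library, so that the populations share fewer than 2 replicate numbers, and the Lin-kit+ libraries could not be tied to a number. Leaving 1 reporter-positive library out assumes that the remaining one varies like the Lin-kit+ libraries. Of 192 levels per class, 49 moved by more than 1 SD between libraries under another clustering, direct assignment or without doublets. Depth limits Cd244, Slamf6 and Slamf7 in the reporter-positive libraries, with 6, 2 and 4 UMIs.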

Other observations

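Small classes of Lin-kit+ cells held further SLAM transcripts. The 53 cells with T or NK markers, led by Ccl5, Tcf7 and Xcl1, had 16 Cd48, 3 Cd244, 3 Ly9, 4 Slamf6 and 2 Slamf7 UMIs and no Slamf1 UMI. Slamf6 was at 25.2 CPM there (95% Poisson interval 6.85 to 64.4). The adaptor Sh2d1a had all its 6 Lin-kit+ UMIs in these cells, and the CD48-binding receptor Cd2 had 7 of its 8. The kinase Lck was at 252 CPM (180 to 343), in 28 of the 53 cells. The 25 eosinophil-like cells, led by Prg2, Prg3 and Epx, had 16 Cd48 UMIs (172 CPM, 98.3 to 279) and 2 Slamf1 UMIs, both in 1 cell. With 3 to 26 cells per library in either class, no test was made.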
